A study of Rattus norvegicus with 4 samples.

Results

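The prostaglandin synthesis enzymes measured here were Ptgs1, Ptgs2, Ptgds and Pla2g4a, 4 of the 4737 genes with a single symbol on the array. All probe sets that the platform annotation gives to these symbols were taken, which were 5 of 8799, with 2 for Ptgs2 and 1 for each other gene. Expression was measured on 2 arrays of the Mat-Lylu cell line and 2 of the G cell line, both of them sublines of the Dunning R3327 rat prostatic tumor. The submitters call Mat-Lylu highly metastatic and G non-metastatic, and take G as the control. Each line is a single subline, no treatment is named, and the labels speak of duplicates without naming separate cultures, so the spread between arrays of a line may be technical.

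Cytosolic phospholipase A2, encoded by Pla2g4a, cuts arachidonic acid from membrane phospholipids. The cyclooxygenases encoded by Ptgs1 and Ptgs2 turn it into prostaglandin H2, which terminal synthases convert to the single prostanoids. Ptgs1 is the constitutive form in many tissues and Ptgs2 the form induced by cytokines and growth factors. Ptgds encodes the lipocalin-type prostaglandin D synthase, a secreted protein known from the brain and the male genital tract.

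The genes were chosen by their signals on these same 4 arrays, with the differences between the lines known, so their values are a description and carry no test. In Mat-Lylu the Ptgs1 signal was higher and the Ptgds signal lower than in G, each by several fold. Pla2g4a was lower by less than 2-fold, and Ptgs2 lay at nearly the same level in both lines. All 5 probe sets passed the filter on low values, which left out the 25% of the probe sets with the lowest mean. For 4 of the 5 the signals of the lines did not overlap, as for 67.4% of all 6555 probe sets that passed. A difference of 2-fold or more was fitted for 1 of the 5 upward and 1 downward, beside 3.65% and 4.74% of all tested probe sets, and nothing is read from either count.

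The promoters of both cyclooxygenase genes and of Ptgds are shown because Ptgs1 and Ptgds stood farthest from equal levels, in opposite directions, and Ptgs2 is the isoenzyme of Ptgs1. They are RefSeq sequences of build GRCr8, from 250 bases before to 50 bases after the annotated gene start. Capitals mark motif matches.
Ptgs1, chr3:39981169-39981468, plus strand: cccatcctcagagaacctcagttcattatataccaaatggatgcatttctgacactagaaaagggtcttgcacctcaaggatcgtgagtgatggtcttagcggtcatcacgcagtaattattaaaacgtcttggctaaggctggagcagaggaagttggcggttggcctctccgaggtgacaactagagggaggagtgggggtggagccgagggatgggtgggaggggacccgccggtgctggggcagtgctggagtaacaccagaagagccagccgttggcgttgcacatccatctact
Ptgs2, chr13:64713813-64714112, plus strand: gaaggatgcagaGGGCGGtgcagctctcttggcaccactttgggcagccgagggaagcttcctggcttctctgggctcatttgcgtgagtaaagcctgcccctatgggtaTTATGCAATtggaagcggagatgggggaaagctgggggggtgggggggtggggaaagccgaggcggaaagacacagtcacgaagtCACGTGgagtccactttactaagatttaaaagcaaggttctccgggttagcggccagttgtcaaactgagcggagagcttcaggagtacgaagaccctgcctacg
Ptgds, chr3:28682929-28683228, minus strand: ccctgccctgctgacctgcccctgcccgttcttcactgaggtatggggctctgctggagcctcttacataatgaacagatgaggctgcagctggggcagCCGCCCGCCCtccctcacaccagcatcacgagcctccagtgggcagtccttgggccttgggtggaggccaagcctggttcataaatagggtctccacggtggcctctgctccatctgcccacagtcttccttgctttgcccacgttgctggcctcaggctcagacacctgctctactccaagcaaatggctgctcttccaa
Motifs were searched on both strands in these promoters and in all 33469 of that length. The Ptgs2 window held the palindromic E-box CACGTG, whose match began 55 bases before the gene start and which 6.42% of all promoters hold. It also held the C/EBP motif TTNNGCAAT, 140 bases before the start (2.33% of promoters), and the GC box GGGCGG, 238 bases before it (33.1%). The Ptgds window held 2 overlapping GC boxes on the opposite strand, 151 and 147 bases before the start. The TATA box TATAAA (14.2%), the cyclic AMP response element TGACGTCA (1.83%), its first part TGACG (21.2%) and the AP-1 motif TGANTCA (7.33%) had no match in the 3 windows, and none of the motifs matched in that of Ptgs1. These matches describe the letters and were not measured as bound sites. Ptgs1 and Ptgds lie on chromosome 3, and Pla2g4a and Ptgs2 on chromosome 13, where the RefSeq annotation has no protein-coding gene between them.

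Signals are the linear probe set values deposited by the authors. The background level of an array was taken as the 95th percentile over 23 control probe sets for mouse, yeast and bacterial transcripts. These should find no target in rat RNA, though that was not checked. The level was 1891 and 2311 on the Mat-Lylu arrays and 1973 and 2143 on the G arrays. A second yardstick came from 9 reverse-strand probe sets of spiked controls, whose medians were 2760 and 2880 on the Mat-Lylu arrays and 2618 and 2174 on the G arrays. These controls spread widely, from 1506 to 8969 and 1375 to 8036 on the Mat-Lylu arrays. On the G arrays they ran from 1332 to 8649 and 1199 to 8245. A signal above their median can thus lie inside their range, as all signals of Ptgs2 and Pla2g4a did. Log2 differences are Mat-Lylu minus G on the scale log2(signal + 16), with the standard error (SE) of a limma fit over all 6555 probe sets. A fold computed from them understates the change of dim genes. A fold given as at least was taken with the values of the dimmer line raised to background. Any adjusted p beside such a fold belongs to the limma fit without that step. None of the 5 probe sets came within 5% of an array's highest signal.

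Pla2g4a, which starts the pathway, had signals of 2489 and 2525 on the Mat-Lylu arrays, against 5120 and 4464 on the G arrays. Both Mat-Lylu values lay under both G values, and all 4 were above background. The mean was 2507 ± 25.3 in Mat-Lylu and 4792 ± 464 in G (SD, n = 2 each), a log2 difference of -0.93 (SE 0.09), or 1.90-fold lower. Fewer expressing cells and less RNA per cell cannot be told apart in these bulk samples. The Mat-Lylu signals were 1.32 and 1.09 times the background level of their arrays and stayed under the median of the reverse-strand controls, while the G signals were 2.59 and 2.08 times background and above that median.

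Ptgs1, the cyclooxygenase made constitutively in many tissues, had signals of 12385 and 11705 on the Mat-Lylu arrays, against 2359 and 1894 on the G arrays. Both Mat-Lylu arrays were far above both G arrays, and in G the first array lay above background and the second under it. The mean was 12045 ± 481 in Mat-Lylu and 2126 ± 328 in G, a log2 difference of 2.50 (SE 0.11), or 5.66-fold. Neither G array exceeded the median of the reverse-strand controls, so the fold stands on a denominator near background, while both Mat-Lylu arrays were above that median. With the dim G value raised to the background level of its array the log2 difference was 2.41. The G arrays stood 24.5% apart and the Mat-Lylu arrays 5.81%.

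Ptgs2, the inducible cyclooxygenase, was read by 2 probe sets. On L25925_s_at the signals were 3551 and 3375 in Mat-Lylu, against 3868 and 3905 in G. The lines did not overlap there, and all 4 values were above background and above the median of the reverse-strand controls. The mean was 3463 ± 124 in Mat-Lylu and 3887 ± 26.0 in G, a log2 difference of -0.17 (SE 0.08), or 1.12-fold lower. On S67722_s_at the signals were 2185 and 2445 in Mat-Lylu, against 2063 and 2465 in G. The lines overlapped, the values were 1.05 to 1.16 times the background level, and the log2 difference was 0.04 (SE 0.11). This probe set turned negative without G replicate 0 and without Mat-Lylu replicate 1. The brighter probe set thus had a small lower value in Mat-Lylu, and the dimmer one had no stable direction.

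Ptgds, the terminal synthase for prostaglandin D2, had signals of 1122 and 1162 on the Mat-Lylu arrays, against 20139 and 19018 on the G arrays. Both Mat-Lylu values lay under background, at 0.593 and 0.503 times its level, and both G values were well above it, at 10.2 and 8.87 times. The mean was 1142 ± 28.7 in Mat-Lylu and 19579 ± 793 in G. The fitted log2 difference of -4.08 (SE 0.08) has no exact size, since Mat-Lylu has only a bound. With the Mat-Lylu values raised to the background level the signal was at least 9.30-fold lower.

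**Figure D1:**
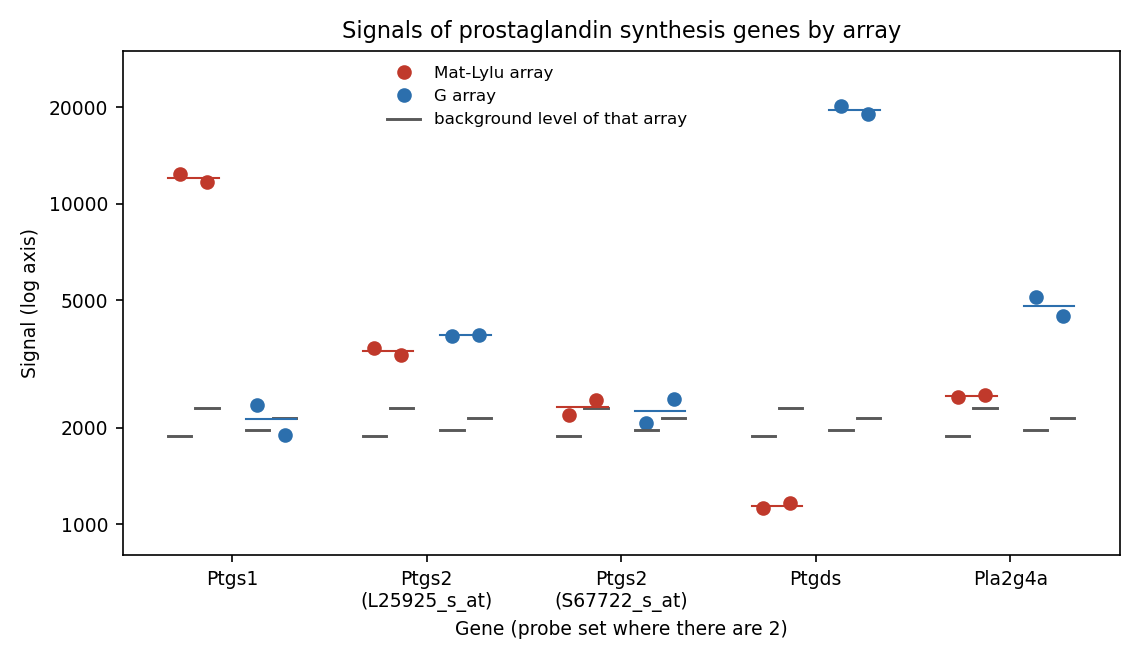
Signal of each of the 5 probe sets (log axis) on the 2 Mat-Lylu and 2 G arrays, with points for arrays, coloured lines for the mean of a line and grey dashes for the background level of each array. Ptgs1 stands at 12385 and 11705 in Mat-Lylu against 2359 and 1894 in G, and Ptgds at 1122 and 1162, under background, against 20139 and 19018.

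Probe sets whose names end in _s_at can match related transcripts, and all of these probe sets but the one for Ptgds are of that kind. The 2 cyclooxygenase genes thus differed from each other in how they stood between the lines, by 2.50 for Ptgs1 against -0.17 and 0.04 for Ptgs2 on the log2 scale. Levels of different probe sets were not set against each other, so no ratio of Ptgs1 to Ptgs2 RNA is given.

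**Figure D2:**
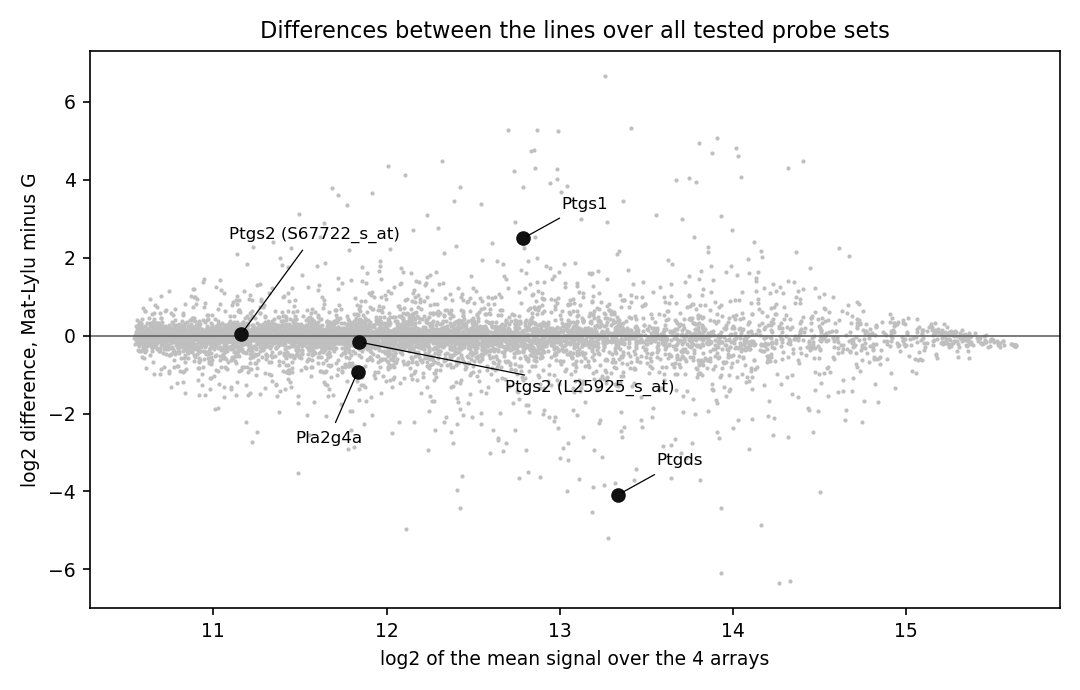
Log2 difference (Mat-Lylu minus G) of the 6555 tested probe sets against the log2 of their mean signal over the 4 arrays; the 5 probe sets of the prostaglandin synthesis genes are black and labelled. Ptgs1 lies at a fitted 2.50 and Ptgds at a fitted -4.08, outside the dense band that holds both Ptgs2 probe sets, and Pla2g4a at -0.93 lies at its lower side.

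Markers of cell types were checked beside these values. All 8 fibroblast genes measured, among them Col1a1, Lum and Thy1, fell in Mat-Lylu in the limma test at its threshold of 0.05 (adjusted p). The same call was made for 19.6% of all 3867 genes tested. Pdgfrb fell just 1.23-fold, and Pdgfra at least 1.13-fold, with both Mat-Lylu arrays under background. The summed signal of the 8 genes ran from 12282 to 12470 in Mat-Lylu and from 150754 to 152814 in G. They moved in the direction of Ptgds and Pla2g4a, and their part in those differences was not tested. Of 6 epithelial and prostate genes tested, Krt8 was higher in Mat-Lylu and the other 5 did not pass. The epithelial and prostate genes Epcam, Krt14 and the rat prostate protein gene Pbsn were left out by the filter on low values. None of 5 leukocyte and mast cell genes tested passed, with summed signals of 18991 to 19755 in Mat-Lylu and 19294 to 19674 in G. The largest part of each sum was Cma1, at 7518 and 8352 in Mat-Lylu and 8195 and 8523 in G. Cpa3, Fcer1a, Itgam, Lyz2 and Tpsab1 of the same list were left out by the filter and lay under background on all arrays. Cell types rich in Ptgs1 include platelets, whose part here was not tested. The sample titles name cell lines and no blood cells. Among 4 endothelial and platelet genes tested, 1 passed and 3 did not. The platelet chemokine gene Pf4 had 2043 and 2319 in Mat-Lylu and 1422 and 1486 in G, with both G values under background. Its fitted log2 difference was 0.58 in limma (adjusted p = 0.0029). With the G values raised to background it was at least 1.06-fold higher, while 2319 lay just over the background level of its array, 2311. The other platelet gene, Itga2b, had a log2 difference of 0.13 and did not pass, and neither did Pecam1 (0.04) and Vwf (-0.0038). S100b, a glial gene, was lower by a log2 difference of -2.01, while its second probe set, at -0.13, did not pass, and the other 3 glial and neuronal genes did not pass.

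The rest of the eicosanoid pathway was described with 7 lists that hold 103 genes without the 4 above, of which 60 were tested. At an adjusted p under 0.05 in limma, 8 of the 60 (13.3%) were higher and 6 (10.0%) lower in Mat-Lylu. Over all 3867 genes tested, 13.8% were higher and 19.6% lower. The median log2 difference was -0.03 in the lists and -0.02 over all genes. Without Mat-Lylu replicate 1 the genes called higher were 5. The brightest tested probe set stood for its gene.

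Genes that act on arachidonate release included 2 rises and 1 fall among 13 tested. Anxa1, encoding annexin A1, a phospholipase A2 inhibitor, had 21741 and 22038 in Mat-Lylu and 12442 and 10946 in G, and rose 1.87-fold (adjusted p = 0.00026). Its other probe set rose 3.08-fold. Acsl4, the acyl-CoA synthetase that prefers arachidonic acid, rose 1.80-fold, with signals of 8671 and 9380 in Mat-Lylu and 4954 and 5059 in G, and all 3 of its probe sets rose. Pla2g6, the calcium-independent phospholipase A2, fell 1.25-fold (adjusted p = 0.016), a call lost without any one of G replicate 1, Mat-Lylu replicate 0 and Mat-Lylu replicate 1. The secreted phospholipases A2 Pla2g1b, Pla2g2a and Pla2g5 differed by 0.22, 0.06 and -0.23 on the log2 scale and did not pass, and neither did the acyltransferase gene Plaat3, at -0.26.

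Of 5 terminal synthase genes tested besides Ptgds, 1 rose and none fell in limma; at an unadjusted p under 0.05 none fell either. Tbxas1, the thromboxane synthase, had 3248 and 3527 in Mat-Lylu and 2476 and 2619 in G and rose 1.33-fold (adjusted p = 0.0089), a call lost without Mat-Lylu replicate 1. Hpgds, which encodes the glutathione-dependent prostaglandin D synthase of blood cells, had 5210 and 5807 in Mat-Lylu and 5259 and 5770 in G. Its log2 difference was -0.0022 (SE 0.09), beside the fitted -4.08 of Ptgds, the other synthase of the same product. A dimmer probe set of Hpgds, under background on all 4 arrays, had a log2 difference of 0.40 and passed in limma (adjusted p = 0.024). Ptgis, the prostacyclin synthase, had a log2 difference of -0.17 and did not pass. The carbonyl reductase gene Cbr1 did not pass on its brightest probe set, and a second one was 1.24-fold lower. Akr1b1, an aldose reductase that can form prostaglandin F2 alpha, gave 29870 and 13301 on the Mat-Lylu arrays and 23396 and 22428 on the G arrays. These Mat-Lylu arrays disagreed and the gene did not pass, while its second probe set was 1.87-fold higher.

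Of 10 receptor genes tested, 1 rose and 1 fell. Tbxa2r, the thromboxane receptor, had 7141 and 7039 in Mat-Lylu and 10262 and 9479 in G, and fell 1.39-fold (adjusted p = 0.0035), while its second probe set, with a log2 difference of -0.16, did not pass. Ptgfrn, a negative regulator of the prostaglandin F receptor, rose 1.21-fold (adjusted p = 0.047), a call lost when any 1 array was left out. Its dimmer probe set, above background on all arrays, rose 1.39-fold in limma (adjusted p = 0.0032). The prostaglandin E receptor genes Ptger1, Ptger2, Ptger3 and Ptger4 differed by 0.04, 0.06, -0.16 and 0.21 on the log2 scale on their brightest probe sets and did not pass. Of the other 2 probe sets of Ptger3, 1 was lower, by a log2 difference of -0.38 (adjusted p = 0.014). Ptgir, the prostacyclin receptor, had 13880 and 14665 in Mat-Lylu and 13805 and 14384 in G. Pparg, the nuclear receptor that binds prostaglandin J2 products of prostaglandin D2, was left out by the filter. Its signals were 2992 and 2371 in Mat-Lylu and 793 and 576 in G, where both lay under background, so Mat-Lylu was at least 1.29-fold higher, without a test.

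Of 3 transport and breakdown genes tested, 1 rose, 1 fell and 1 did not pass. Ptgr1, which reduces 15-oxo-prostaglandins and also inactivates leukotriene B4, had 12039 and 12815 in Mat-Lylu and 5187 and 5005 in G and rose 2.43-fold (adjusted p = 1.4e-05). Akr1c14, a rat hydroxysteroid dehydrogenase that can also oxidise prostaglandins, was under background on both Mat-Lylu arrays, at 1361 and 1561, against 4333 and 4263 in G, and fell at least 2.05-fold (adjusted p = 1.1e-05). Slco2a1, the prostaglandin uptake carrier, differed by 0.11 on the log2 scale and did not pass; its dimmer probe set, above background on just 1 Mat-Lylu array and on neither G array, was at least 1.14-fold higher (adjusted p = 0.049). Hpgd, the main enzyme of prostaglandin breakdown, was left out by the filter and lay under background in both lines, at 1409 and 1430 in Mat-Lylu and 1235 and 1182 in G.

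The leukotriene and other eicosanoid list had 3 rises and 3 falls among 16 genes tested. Mgst2, a microsomal glutathione transferase able to form leukotriene C4, had 33946 and 34668 in Mat-Lylu and 7902 and 7730 in G and rose 4.38-fold. Ggt1, the gamma-glutamyl transferase that takes leukotriene C4 to D4, rose 1.60-fold (adjusted p = 0.00090). Dpep1, the dipeptidase that takes leukotriene D4 to E4, had 5159 and 5552 in Mat-Lylu and 12917 and 12247 in G and fell 2.35-fold (adjusted p = 2.2e-05). Ephx1, the microsomal epoxide hydrolase, fell 1.91-fold, where just 1 Mat-Lylu array exceeded background, and the cytochrome P450 gene Cyp4f1 fell at least 1.49-fold. The third rise, Cyp2c23, an arachidonate epoxygenase of rat kidney, had a second probe set that was lower. Its log2 difference of 0.34 became 0.0077 with the mean of all its probe sets, and 0.25 (adjusted p = 0.16) with a floor at background. The lipoxygenase genes Alox5 and Alox15, the 5-lipoxygenase partner Alox5ap and the leukotriene A4 hydrolase gene Lta4h did not pass and differed by 0.13, 0.02, -0.07 and -0.20 on the log2 scale.

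**Figure D3:**
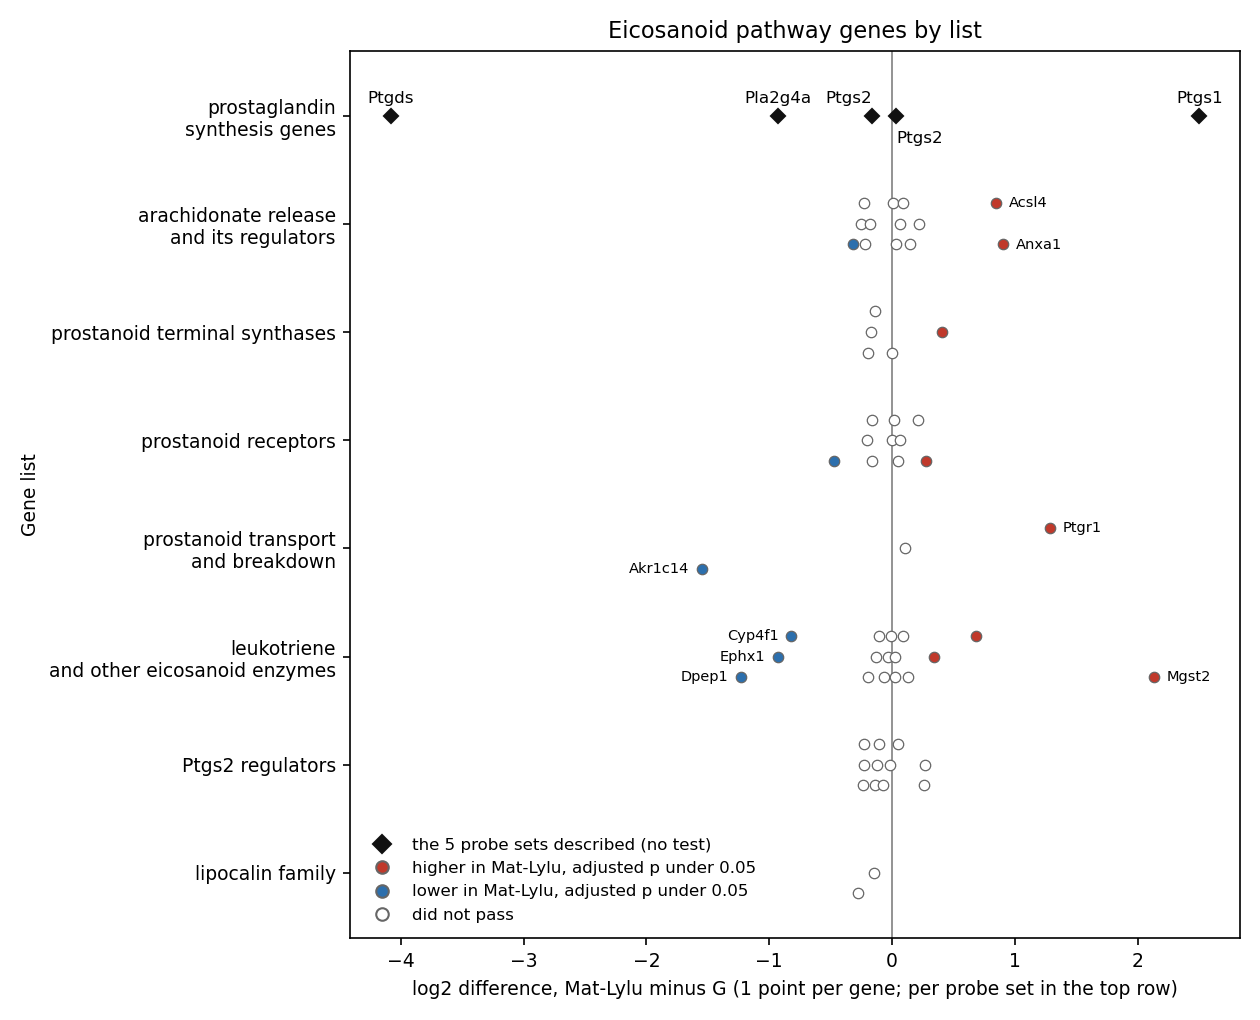
Log2 difference (Mat-Lylu minus G) of the 5 prostaglandin synthesis probe sets (black, top row, no test) and of the 60 tested genes of the 7 lists, 1 point a gene, filled where the adjusted p was under 0.05. Most list genes lie near 0; Mgst2 at 2.13 and Ptgr1 at 1.28 are the farthest to the right and Akr1c14 at a fitted -1.55 and Dpep1 at -1.23 the farthest to the left of them.

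None of 11 genes linked to the control of Ptgs2 passed the threshold in limma, in either direction. At an unadjusted p under 0.05, 2 were higher and 2 lower, and the log2 differences ran from -0.23 to 0.27. The transcription factor gene Creb1 (0.27, adjusted p = 0.053) and the inducible nitric oxide synthase gene Nos2 (0.26, adjusted p = 0.058) came closest. Nfkb1 had -0.11, the NF-kappa-B inhibitor gene Nfkbia -0.23, and the phosphatase gene Dusp1 -0.23, the last 2 being those lower at an unadjusted p under 0.05. Dimmer probe sets of Cebpd, Nfkbia and Il1r1 passed, those of Cebpd and Nfkbia lower and that of Il1r1 higher. The Dusp1 probe sets S74351_s_at and S81478_s_at were left out by the filter, with log2 differences of -1.18 and -1.81 and no test. S81478_s_at lay under background on all 4 arrays. S74351_s_at lay under background on both Mat-Lylu arrays and above it on both G arrays, and was at least 1.05-fold lower. Il1b, the interleukin 1 beta gene, was left out by the filter and lay under background on all 4 arrays. Of 7 lipocalin genes on the array, the family of Ptgds, 2 passed the filter: Rbp4, the retinol carrier, and Ambp, neither past the threshold in limma, with log2 differences of -0.15 and -0.28. A dimmer probe set of Rbp4, under background on both Mat-Lylu arrays, was at least 1.10-fold lower (adjusted p = 0.011). At an unadjusted p under 0.05, 1 of them, Ambp, was lower. Its signal lay under background on both Mat-Lylu arrays and on 1 G array. A dimmer probe set of Ambp, under background on all 4 arrays, had a log2 difference of -0.06 and did not pass.

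The genes whose profile over the 4 arrays was nearest were taken by the Euclidean distance between log2 values centred on each probe set's mean. With 2 arrays a line, this measure follows the difference between the lines. Nearest to Ptgs1 were Fst, Prps2 and Sdc1, at distances of 0.21, 0.23 and 0.24. Fst, encoding follistatin, had 14066 and 11276 in Mat-Lylu and 2259 and 2046 in G. Nearest to Ptgds were Uchl1, Ndufa4l2 and Col1a1, at 0.13, 0.22 and 0.25, and Uchl1, a neuronal deubiquitinase, had 919 and 1051 in Mat-Lylu and 16272 and 15536 in G. Nearest to Pla2g4a were Acadvl, Adora2b and Agrn, at 0.04 to 0.06. For the brighter Ptgs2 probe set they were Ptgis, Adgrl2 and Eif2b1, at 0.01 to 0.02, where the differences between the lines were small in all of them.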

How the data were processed

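Total RNA of 2 Mat-Lylu and 2 G arrays was labelled with biotin per the labels' protocols. The deposited table holds linear signal intensities of probe sets, 1 column an array, which the authors made with MAS5 per the submitters' processing notes. No version, scaling target or filter is given in the sources used here. The 2% trimmed means of the arrays differed by 7.83% at most, under a limit of 10%, so no further scaling was used. Probe sets were named by the platform annotation, with symbols updated through the GRCr8 RefSeq table: 7018 had 1 symbol, 308 several and 1473 none, and 6994 of the 7018 matched. The 59 control probe sets and the 25% with the lowest mean log2 signal were left out. Mat-Lylu was compared with G on log2(signal + 16) with limma 3.58.1 in R 4.3.3 (eBayes with an intensity trend, 2-sided, Benjamini-Hochberg over 6555 probe sets, threshold 0.05), after the script was tested on simulated data. At that threshold 891 probe sets were higher and 1318 lower, against 1122 and 1161 with quantile normalization and 1062 and 1173 with median scaling. The size of the excess of lower calls thus depends on the scaling, though lower calls stayed more numerous with both. The members, lists, background level and tests were chosen with earlier results of these data known. Named were the members, up to 5 genes of each list by smallest p, those past the threshold at 2-fold or more, and the 3 nearest profiles of each member; other genes of the lists were named after their values were seen. Genes without a single-symbol probe set, such as Ptges and Ptgdr, were not analysed here. Alternatives changed the pseudocount (1, 64), the scaling, a floor at background, the filter, the trend, the replicate block and the arrays. The number of arrays limits the precision.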

Additional observations from a re-analysis of the deposited data

How the results depend on the processing

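The differences of Ptgs1, Pla2g4a and Ptgds kept their direction in every alternative run for them. With 1 array left out they ran from 2.34 to 2.66 for Ptgs1, from -1.03 to -0.83 for Pla2g4a and from -4.12 to -4.04 for Ptgds. Ptgds moved to -4.03 with a pseudocount of 64 and with quantile normalization, and to -3.22 with a floor at the background level, which raises its dim Mat-Lylu values. The Ptgs2 probe set L25925_s_at moved to -0.12 with median scaling and ran from -0.20 to -0.13 with 1 array left out. Its other probe set, S67722_s_at, ran from -0.092 to 0.16 and turned negative without G replicate 0 (-0.092) and without Mat-Lylu replicate 1 (-0.05). With the lowest 50% left out, 38 of the 60 pathway genes were tested, and 5 were higher and 3 lower. With 1 array left out, 5 to 7 were higher and 5 to 7 lower. Of the 14 called, 10 kept the call in every one of the 14 alternatives that tested them, and Pla2g6, Tbxas1, Ptgfrn and Cyp2c23 did not; none reversed. The replicate number as a block gave 951 probe sets higher and 1402 lower, and 8 and 7 pathway genes. The labels do not say that the numbers pair arrays, and deviations of same-numbered arrays correlated at 0.16 over 6555 probe sets. Signal over background limits Ptgds and Pla2g4a in Mat-Lylu, Ptgs1 in G and the dimmer Ptgs2 probe set.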
